A study of Mus musculus with 18 samples.

Results

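The BCL2 family decides whether a cell releases cytochrome c from its mitochondria and dies. The 10 family members described here were selected by gene symbol from the deposited tables, 10 of 55385 genes. They are the guardians Bcl2, Bcl2l1 and Mcl1, the effectors Bax and Bak1, and the BH3-only genes Bcl2l11, Bmf, Bbc3, Pmaip1 and Bid. All 10 passed the filter on low counts, which left 18634 genes for testing. None of them lies on chromosome 16, so none belongs to the interval whose copy number differs between the genotypes.

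Poly(A) RNA of adult mouse spleen was sequenced in 18 libraries of 3 genotypes, 6 each, with 3 males and 3 females per genotype. Dp16_2xIFNRs mice carry the Dp16 duplication, but Ifnar1, Ifnar2, Ifngr2 and Il10rb, which encode interferon receptor chains, are at their normal copy number. Dp16 mice have in all cells an extra copy of a part of chromosome 16, a mouse counterpart of much of human chromosome 21. WT mice are C57BL/6J, untreated like the others. The age label ran from 17.7 to 18 in Dp16_2xIFNRs and from 17.1 to 18 in Dp16 and in WT, under a tag of days post conception, and its unit is not interpreted here. The labels name each library a separate spleen sample. Each also has a coded label whose last number is shared by libraries of different genotypes in 5 cases (11 libraries), always of 1 sex. The meaning of the codes is not given in the sources used here, so p-values measure the spread between these samples.

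Guardians hold effectors in check. BH3-only proteins bind guardians through a short helix, the BH3 segment, and free BAX and BAK to open the outer mitochondrial membrane. In mouse blood cells the guardian BCL-XL, the product of Bcl2l1, keeps late red cell precursors alive. BCL2 sustains mature lymphocytes, MCL1 many blood lineages including stem cells, and BMF and BIM (Bcl2l11) limit B cell numbers.

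The coding stretch of the BH3 segment is shown for the 6 members that differed from WT in both mutant genotypes, since it is the element the family shares. Each line gives 27 bases of coding strand from the GENCODE vM21 transcripts on GRCm38. Capitals mark the codons for the leucine that opens the core, and for the glycine (alanine in Bmf) and aspartate that follow within it.
Bcl2: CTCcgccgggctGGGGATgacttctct
Bcl2l1: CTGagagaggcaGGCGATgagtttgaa
Mcl1: CTGcggcgcgtgGGCGACggcgtgcag
Bax: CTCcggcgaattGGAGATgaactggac
Bak1: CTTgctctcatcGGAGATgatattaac
Bmf: CTTcagtgtattGCAGACcagttccat
The stretch covers codons 94 to 102 of Bcl2, 90 to 98 of Bcl2l1 and 224 to 232 of Bmf. Aspartate was encoded by GAT in Bcl2, Bcl2l1, Bax and Bak1 and by GAC in Mcl1 and Bmf.

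Library totals ran from 33998427 to 53021480 counts, and 3 counts, the most that a reading of 0 allows, equal 0.0566 to 0.0882 CPM (counts scaled to the library total). Each member was far above that floor in every library. These floors cover counting error only. The 4 receptor genes summed to 308 to 342 CPM in Dp16_2xIFNRs, 424 to 503 in Dp16 and 337 to 363 in WT, and they were the 4 genes called between the mutant genotypes. Gm42418, a gene model over ribosomal RNA sequence, took 0.691% to 5.51% of counts, above 4% in 4 libraries.

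Spleens of both mutant genotypes had more Bcl2l1 and Bak1 and less Bmf, Bcl2 and Mcl1 RNA than WT spleens. Bcl2l1 stood at a fold of 2.56 in Dp16_2xIFNRs and 2.45 in Dp16, and Bmf at a fold of 0.522 in Dp16_2xIFNRs and 0.526 in Dp16. In Dp16_2xIFNRs against WT, edgeR's quasi-likelihood test called 7 of the 10 members at a Benjamini-Hochberg adjusted p below 0.05. Of all tested genes 31.4% were called in that comparison. The 3 members that rose were Bcl2l1, Bak1 and Bax (17.3% of all genes rose), and the 4 that fell were Bmf, Bcl2, Mcl1 and Bcl2l11 (14.2% of all genes fell). In Dp16 against WT 6 of 10 were called, against 29.8% of all genes. These were the same 3 higher members (16.6% of all genes) and 3 lower ones, without Bcl2l11 (13.2% of all genes). With a filter of 1 CPM in at least 6 libraries, 5986 of 14760 tested genes and 7 members were called in Dp16_2xIFNRs. For Dp16 that filter gave 5692 of 14760 genes and 6 members. The members were chosen with earlier results of these data known. The median log2 fold change of the 10 members was -0.03 in Dp16_2xIFNRs and -0.12 in Dp16, against -0.01 for all genes in both. Both comparisons share the WT libraries and are not independent of each other. Of all called genes 54.9% were higher in Dp16_2xIFNRs, against 43.7% when scaled by the upper quartile and 36.9% in limma-trend on log2(RPKM + 0.1). For Dp16 these shares were 55.7%, 43.4% and 36.1%.

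**Figure D1:**
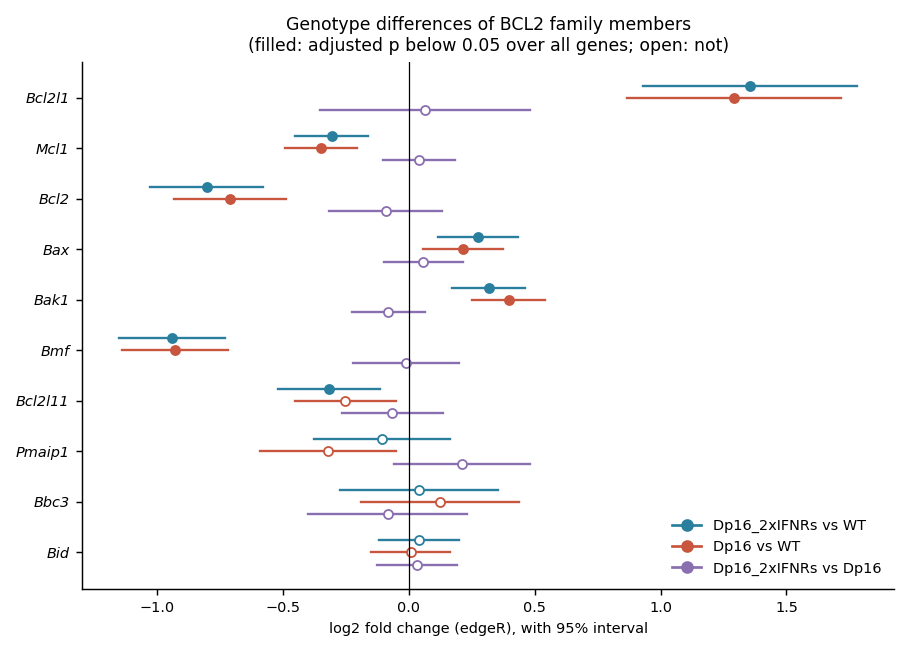
Log2 fold changes of the 10 members (x axis, edgeR, with 95% intervals) by gene (y axis) for the 3 genotype comparisons; filled points passed an adjusted p of 0.05 over all genes and open points did not. Against WT, the Bcl2l1 points lie at 1.36 for Dp16_2xIFNRs and 1.29 for Dp16, and those of Bmf at -0.94 for Dp16_2xIFNRs and -0.93 for Dp16, while every Dp16_2xIFNRs against Dp16 point is open and close to 0.

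The guardians moved in opposite directions. Bcl2l1 (chr2:152780668-152831728, minus strand, GRCm38) had a lowest, median and highest level of 125, 147 and 218 CPM in Dp16_2xIFNRs. In Dp16 these were 115, 159 and 181 CPM, and in WT 37.6, 57.2 and 114 CPM, all scaled by the trimmed mean of M values (TMM). Every mutant library was above every WT library, and the highest WT library, replicate 2, came within 1 CPM of the lowest Dp16 library. The log2 fold change was 1.36 ± 0.22 (SE) in Dp16_2xIFNRs against WT, a fold of 2.56 (adjusted p = 0.000265), and 1.29 ± 0.22 in Dp16 against WT, a fold of 2.45 (adjusted p = 0.000406). In WT, replicate 2 stood apart from the other 5 libraries, which lay between 37.6 and 73.7 CPM. Without that library the log2 fold changes were the largest of all omissions, at 1.56 in Dp16_2xIFNRs and 1.5 in Dp16.

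Whole spleen is a mixture, so more or fewer cells of a type and more or less RNA per cell cannot be told apart here. All 12 red cell precursor markers tested were higher in both mutant genotypes, with a median log2 fold change of 1.68 in Dp16_2xIFNRs and 1.65 in Dp16. They included Car1, a carbonic anhydrase (1.47 in Dp16_2xIFNRs, 1.45 in Dp16), and the globin gene Hbb-bt (1.67 in Dp16_2xIFNRs, 1.66 in Dp16). Their summed level was 9563 to 18316 CPM in Dp16_2xIFNRs, 10054 to 17815 in Dp16 and 2144 to 9133 in WT, and no marker was at 0 in any library. The mutant and WT libraries did not overlap in this sum, and its highest WT value was that of replicate 2, the WT library highest in Bcl2l1. The globin genes Hba-a1 and Hbb-bt weighed heavily in it. Their means were 4863 and 4285 CPM in Dp16_2xIFNRs, of a mean sum of 13924, and 1804 and 1363 CPM in WT, of 4673. The part of red cell precursors in the Bcl2l1 difference was not tested.

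Bcl2 (chr1:106538178-106714274, minus strand), the founding guardian of the family, had a lowest, median and highest level of 41.3, 55.3 and 62.7 CPM in Dp16_2xIFNRs. The corresponding levels were 49.4, 52.9 and 72.3 CPM in Dp16 and 71.1, 92.1 and 112 CPM in WT. All Dp16_2xIFNRs libraries and 5 of 6 Dp16 libraries were below the lowest WT library, which was again replicate 2. Bcl2 fell by 0.80 ± 0.11 on the log2 scale (SE) in Dp16_2xIFNRs against WT (fold 0.574, adjusted p = 4.95e-05) and by 0.71 ± 0.11 in Dp16 against WT (fold 0.611, adjusted p = 0.000127). Its exons share 558 bp with the antisense gene D630008O14Rik, and whether counting used strand is not given in the sources used here.

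Mcl1 (chr3:95658788-95663176, plus strand), which encodes a short-lived guardian, was the most abundant member per gene length. It stood at 509, 585 and 640 CPM (lowest, median, highest) in Dp16_2xIFNRs, at 521, 567 and 615 CPM in Dp16 and at 644, 692 and 816 CPM in WT. No mutant library reached the lowest WT library. The changes were smaller than for the other guardians, -0.31 ± 0.07 (SE, fold 0.809, adjusted p = 0.00283) in Dp16_2xIFNRs and -0.35 ± 0.07 (fold 0.785, adjusted p = 0.00114) in Dp16, both against WT.

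On the deposited RPKM scale, which divides by 1 length per gene, the mix of guardian RNA differed. Levels of different genes can be set side by side there as far as that length holds. Bcl2l1 made up 19.3% ± 4.46 of the RPKM sum of the 3 guardians in Dp16_2xIFNRs, 19.0% ± 3.11 in Dp16 and 7.12% ± 3.20 in WT (SD, n = 6 each). Mcl1 made up 78.1% ± 4.19 in Dp16_2xIFNRs, 78.0% ± 2.85 in Dp16 and 88.6% ± 2.84 in WT. The ratio of Bcl2l1 to Bcl2 RPKM was 4.71 to 11.1 in Dp16_2xIFNRs, 3.75 to 8.16 in Dp16 and 0.810 to 3.79 in WT. The WT value of 3.79 lay just above the lowest Dp16 value, and all other WT values were below the mutant ones. The summed guardian level was 212 ± 7.31 RPKM in Dp16_2xIFNRs, 206 ± 9.23 in Dp16 and 250 ± 22.0 in WT (SD, n = 6). These shares and sums are given as a description, without a test. RPKM is scaled by library total alone, without TMM. On log2(RPKM + 0.1) the median of all genes against WT was -0.12 in Dp16_2xIFNRs and -0.13 in Dp16. Sums compared between genotypes include that offset, while shares and ratios within a library do not.

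**Figure D2:**
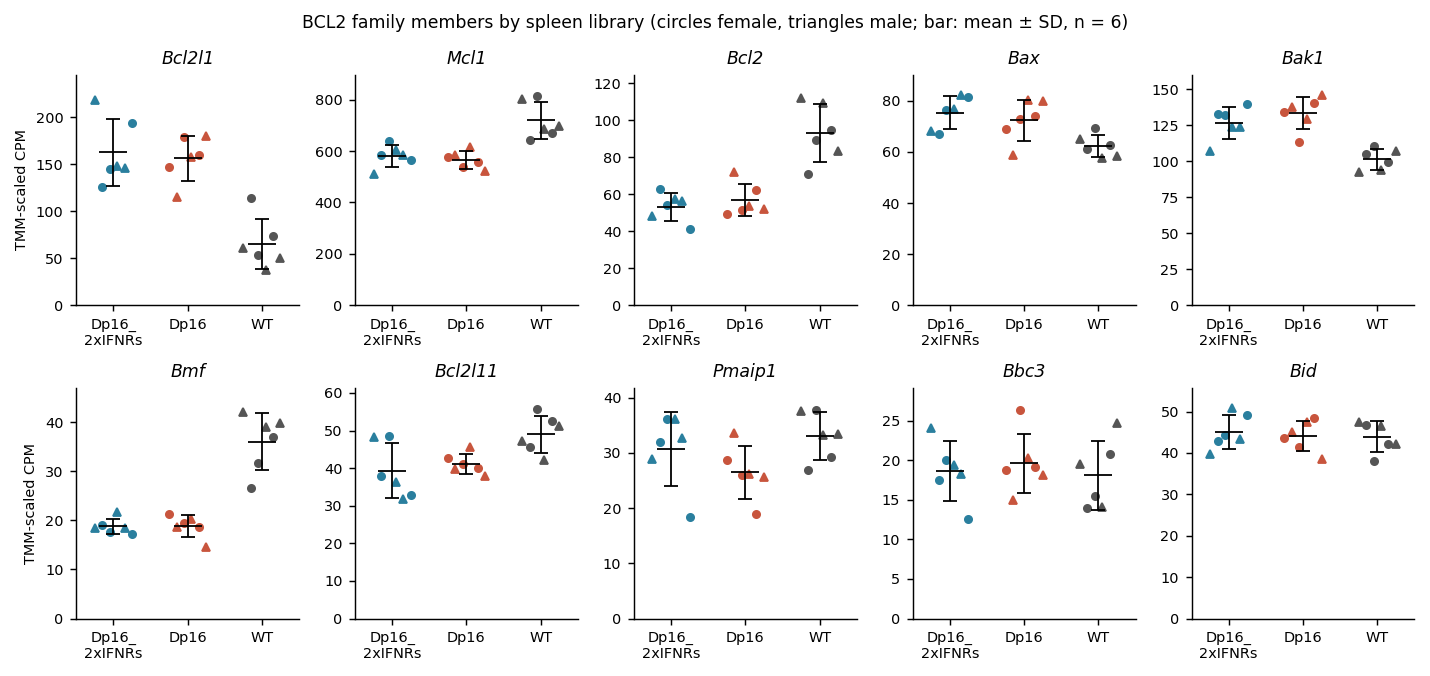
TMM-scaled CPM of each member (y axis, linear from 0) in the 18 libraries, in columns for Dp16_2xIFNRs, Dp16 and WT; circles are female and triangles male libraries, and bars show the mean with SD (n = 6). Bcl2l1 shows mutant libraries from 115 to 218 CPM above WT libraries from 37.6 to 114, Bmf mutant libraries from 14.6 to 21.8 below WT libraries from 26.6 to 42.2, and Bid overlapping columns.

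Both effector genes were higher, by less than the guardian Bcl2l1. Bak1 (chr17:27019810-27029009, minus strand), which encodes the effector resident in the outer mitochondrial membrane, had 107, 128 and 140 CPM (lowest, median, highest) in Dp16_2xIFNRs. It had 113, 136 and 146 CPM in Dp16 and 92.3, 102 and 110 CPM in WT. All Dp16 libraries and 5 of 6 Dp16_2xIFNRs libraries exceeded the highest WT library. Bak1 rose by a log2 fold change of 0.32 ± 0.07 (SE, fold 1.25, adjusted p = 0.0024) in Dp16_2xIFNRs and 0.40 ± 0.07 (fold 1.32, adjusted p = 0.00044) in Dp16, against WT. With limma-trend on log2(RPKM + 0.1) the call was lost for Dp16_2xIFNRs (0.20, adjusted p = 0.0572). Bak1 shares exonic sequence with the opposite-strand gene Ggnbp1 (437 and 177 bp for its annotated copies).

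Bax (chr7:45461697-45466898, minus strand), whose protein moves from the cytosol to mitochondria when activated, lay at 67.1, 76.7 and 82.4 CPM (lowest, median, highest) in Dp16_2xIFNRs. It lay at 58.7, 73.5 and 80.2 CPM in Dp16 and at 57.6, 62.0 and 69.2 CPM in WT. The columns overlapped, with 4 of 6 libraries of each mutant genotype above the highest WT library. The log2 fold change was 0.27 ± 0.08 (SE, adjusted p = 0.0124) in Dp16_2xIFNRs and 0.22 ± 0.08 (adjusted p = 0.0481) in Dp16, against WT. The Dp16 call was the least stable of the 6, since DESeq2 (0.20, adjusted p = 0.0606) and upper quartile scaling (0.15, adjusted p = 0.157) did not make it, and limma-trend on RPKM made neither. Bax shares 192 bp of exon with the same-strand gene model Gm45808, so reads there may not all be counted for Bax.

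Among the BH3-only genes, Bmf had the largest change. Bmf (chr2:118528757-118549687, minus strand) encodes a protein that in healthy cells binds dynein light chain and is released under stress. Its lowest, median and highest levels were 17.3, 18.5 and 21.8 CPM in Dp16_2xIFNRs, 14.6, 19.1 and 21.2 CPM in Dp16 and 26.6, 38.1 and 42.2 CPM in WT. The groups did not overlap: every mutant library was below every WT library. The log2 fold change was -0.94 ± 0.11 (SE, fold 0.522, adjusted p = 6.06e-06) in Dp16_2xIFNRs and -0.93 ± 0.11 (fold 0.526, adjusted p = 6.55e-06) in Dp16, against WT. It was the largest decrease among the members in both comparisons, and omission of any single library left it between -1.01 and -0.84.

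B cell markers were lower in the same libraries. Of 12 B cell markers 11 were called lower and 0 higher in each mutant genotype, with a median log2 fold change of -0.58 in Dp16_2xIFNRs and -0.67 in Dp16. Fcmr, the IgM receptor gene, was at -0.92 in Dp16_2xIFNRs and -0.89 in Dp16, and the complement receptor gene Cr2 at -0.82 in Dp16_2xIFNRs and -0.77 in Dp16. The marker not called was Cd72, at -0.13 in Dp16_2xIFNRs (adjusted p = 0.411) and -0.18 in Dp16 (adjusted p = 0.247). Their summed level was 3320 to 4184 CPM in Dp16_2xIFNRs, 3258 to 4031 in Dp16 and 4591 to 6883 in WT, without overlap and with no marker at 0 in any library. Fewer T cell markers differed, with 1 of 10 lower in Dp16_2xIFNRs and 2 of 10 in Dp16, and 0 higher. The called genes were Cd8a, at -0.59 in Dp16_2xIFNRs and -0.60 in Dp16, and Cd8b1 in Dp16 (-0.33). T cell markers summed to 879 to 1238 CPM in Dp16_2xIFNRs, 1010 to 1196 in Dp16 and 915 to 1183 in WT. The part of B cell or T cell content in the Bmf and Bcl2 differences was not tested.

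**Figure D3:**
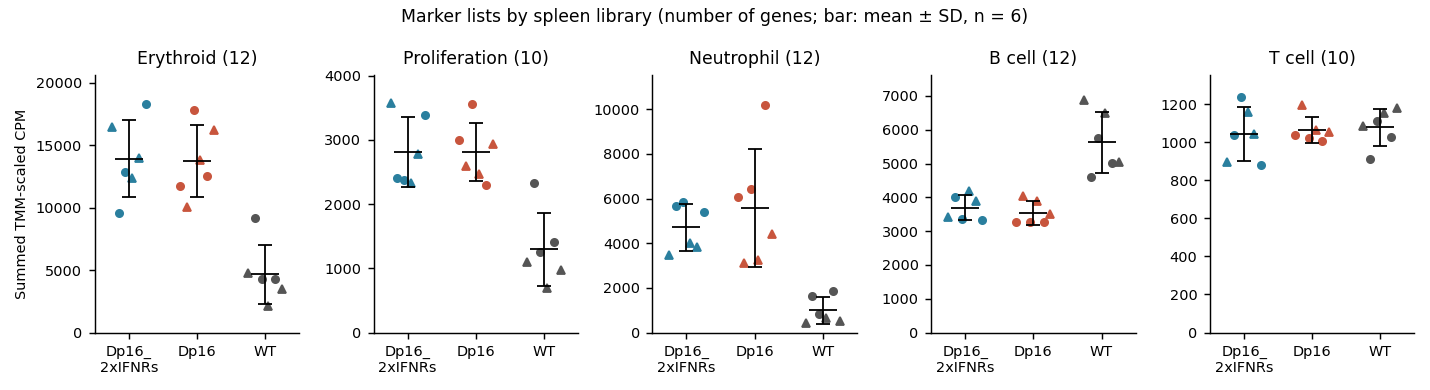
Summed TMM-scaled CPM of marker lists (y axis, linear from 0) in the 18 libraries, in columns for Dp16_2xIFNRs, Dp16 and WT, with the mean and SD (n = 6). Red cell precursor sums are 9563 CPM or more in the mutant libraries and 9133 or less in WT, while B cell sums are 4184 or less in the mutant libraries and 4591 or more in WT.

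Bcl2l11 (chr2:128126038-128162547, plus strand) encodes BIM, the BH3-only protein best known for removing lymphocytes. It lay at 31.9, 37.2 and 48.7 CPM (lowest, median, highest) in Dp16_2xIFNRs, 38.0, 40.5 and 45.7 CPM in Dp16 and 42.3, 49.2 and 55.6 CPM in WT. The groups overlapped, with 4 of 6 libraries of each mutant genotype below the lowest WT library. Bcl2l11 fell in Dp16_2xIFNRs (log2 fold change -0.32 ± 0.10 SE, adjusted p = 0.0217) and did not pass the threshold in Dp16 (-0.25 ± 0.10, adjusted p = 0.0692). The difference between the mutant genotypes was -0.06 ± 0.10 (adjusted p = 1.00), so the pass in 1 of them is no difference between them. The Dp16_2xIFNRs call was lost without WT replicate 3 (adjusted p = 0.0559) or Dp16_2xIFNRs replicate 5 (0.0611) or 6 (0.0636), in a fit of the 12 libraries of those genotypes alone (0.0583), and without the 4 libraries rich in Gm42418 (0.0699).

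The other BH3-only genes gave no call against WT. Pmaip1 (chr18:66458533-66465565, plus strand) encodes NOXA, which binds MCL1. Its levels were 18.3, 32.3 and 36.2 CPM (lowest, median, highest) in Dp16_2xIFNRs, 19.0, 26.1 and 33.7 CPM in Dp16 and 26.9, 33.4 and 37.7 CPM in WT. The groups overlapped, with a log2 fold change of -0.11 ± 0.14 (SE, adjusted p = 0.621) in Dp16_2xIFNRs and -0.32 ± 0.14 (adjusted p = 0.0871) in Dp16. The Dp16 value passed without Dp16 replicate 2 (-0.38, adjusted p = 0.0490) or Dp16_2xIFNRs replicate 6 (-0.32, adjusted p = 0.0359).

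Bbc3 (chr7:16308393-16318205, plus strand), the p53 target that encodes PUMA, ranged from 12.5 to 24.2 CPM in Dp16_2xIFNRs, 15.0 to 26.3 in Dp16 and 14.0 to 24.8 in WT. Its log2 fold change against WT was 0.04 in Dp16_2xIFNRs (95% interval -0.27 to 0.36) and 0.12 in Dp16 (-0.19 to 0.44). Bid (chr6:120891930-120916853, minus strand), which links death receptors to mitochondria once caspase-8 has cut it, ranged from 39.8 to 50.9 CPM in Dp16_2xIFNRs, 38.5 to 48.5 in Dp16 and 37.9 to 47.6 in WT. Its log2 fold change was 0.04 in Dp16_2xIFNRs (-0.12 to 0.20) and 0.01 in Dp16 (-0.15 to 0.17), so that a change of the size of Bcl2l1 or Bmf lay outside both intervals. The columns of both genes overlapped throughout. Bid shares 628 bp of exon with the opposite-strand gene Bcl2l13.

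**Figure D4:**
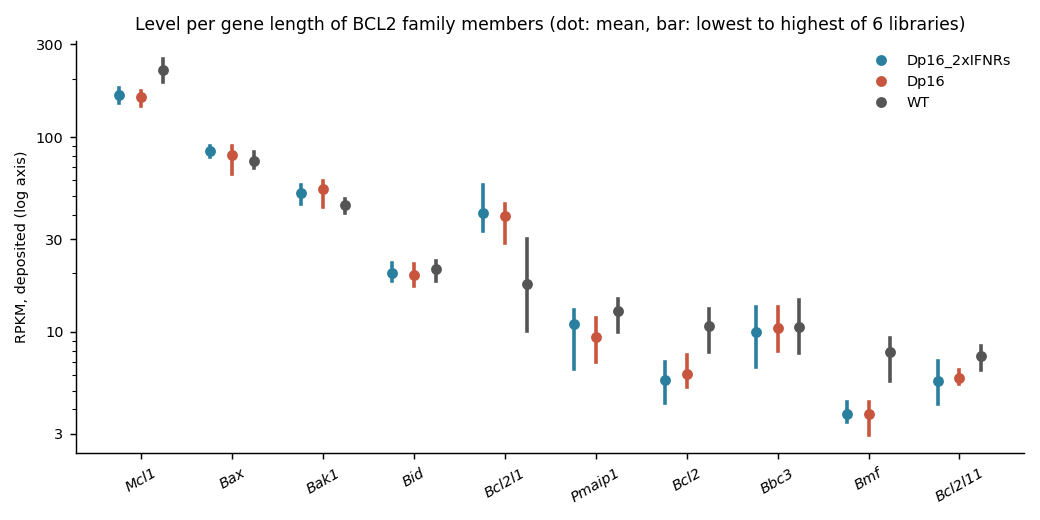
Deposited RPKM (y axis, log scale) of the 10 members, ordered along the x axis by their WT mean, for Dp16_2xIFNRs, Dp16 and WT; dots are means and bars run from the lowest to the highest of 6 libraries. Mcl1 lies highest, at 166 RPKM in Dp16_2xIFNRs, 161 in Dp16 and 222 in WT, and Bcl2l1 lies at 40.8 RPKM in Dp16_2xIFNRs, 39.2 in Dp16 and 17.6 in WT.

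On the deposited RPKM scale, Mcl1, Bax and Bak1 had the 3 highest means in each genotype. The order depends on the length used. The RPKM values imply 867 bp for Bax, 2387 for Bak1, 3887 for Bcl2l1 and 2189 for Bid. Exons in GENCODE vM21 cover 1576 bp for Bax, 2407 for Bak1, 4586 for Bcl2l1 and 3550 for Bid. Places with the exonic lengths were not computed. In WT, Mcl1 was at 222 ± 23.8 RPKM, Bax at 75.9 ± 5.56 and Bak1 at 44.8 ± 3.18 (SD, n = 6), with no overlap between neighbours. Bid (21.1), Bcl2l1 (17.6), Pmaip1 (12.8), Bcl2 (10.8), Bbc3 (10.6), Bmf (7.87) and Bcl2l11 (7.51) followed, each overlapping the next in its range over libraries. In both mutant genotypes Bcl2l1 stood in place 4, above Bid and without overlap with it, at 40.8 ± 9.45 RPKM in Dp16_2xIFNRs and 39.2 ± 5.90 in Dp16. Its range overlapped that of Bak1 there. Bmf was last in both, at 3.77 ± 0.376 RPKM in Dp16_2xIFNRs and 3.79 ± 0.472 in Dp16, against 7.87 ± 1.38 in WT. As a share of the RPKM of the 5 BH3-only genes, Bmf was 7.51% in Dp16_2xIFNRs, 7.68% in Dp16 and 13.1% in WT. The effector sum was 136 ± 6.97 RPKM in Dp16_2xIFNRs, 136 ± 12.3 in Dp16 and 121 ± 7.24 in WT (SD, n = 6). The sum of the 5 BH3-only genes was 50.4 ± 4.86 RPKM in Dp16_2xIFNRs, 49.1 ± 2.40 in Dp16 and 59.8 ± 5.35 in WT. These levels and sums also include the RPKM offset between genotypes given above, and the differences of the sums were not tested.

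Between the mutant genotypes, which differ in interferon receptor copy number, no member was called. The count was 0 of 10 with edgeR, DESeq2 and limma-trend on RPKM, and 0 of 10 had an unadjusted p below 0.05, while 0.0215% of all genes were called. The log2 fold change of Dp16_2xIFNRs against Dp16 was 0.07 for Bcl2l1 (95% interval -0.35 to 0.48) and -0.01 for Bmf (-0.22 to 0.20). It was -0.09 for Bcl2 (-0.32 to 0.13) and 0.04 for Mcl1 (-0.10 to 0.19). The farthest from 0 was Pmaip1 at 0.21 (-0.06 to 0.48). The intervals of Bcl2l1, Bmf, Bcl2 and Mcl1 do not reach the size of their differences from WT.

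No member passed the threshold for sex. In the term for males against females 0 of 10 members were called by edgeR, 0 had an unadjusted p below 0.05, and 0.258% of all genes were called (0.0537% higher and 0.204% lower in males). In the sex by genotype fit 0 genes were called for Dp16 against WT (439 at an unadjusted p below 0.05), 0 for Dp16_2xIFNRs against WT (745) and 0 for Dp16_2xIFNRs against Dp16 (425), and other tools were run on neither fit. Of the members, Bmf in Dp16 against WT (-0.49 ± 0.20 SE, adjusted p = 1.00 in edgeR) and Bcl2l1 in Dp16_2xIFNRs against WT (0.84 ± 0.38 SE, adjusted p = 1.00) alone had an unadjusted p below 0.05 there. In males Bmf stood at 18.4, 18.5 and 21.8 CPM in Dp16_2xIFNRs, 14.6, 18.7 and 20.4 in Dp16 and 39.1, 39.9 and 42.2 in WT. In females it stood at 17.3, 17.6 and 19.0 CPM in Dp16_2xIFNRs, 18.7, 19.6 and 21.2 in Dp16 and 26.6, 31.6 and 37.1 in WT. Both sexes had all mutant libraries below all WT libraries of the same sex, and WT females were lower than WT males. For Bcl2l1, WT females had 53.4, 73.7 and 114 CPM and WT males 37.6, 50.02 and 61.0 CPM.

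Within genotypes, Bcl2l1 and Bcl2 varied in opposite directions over the libraries. After removal of genotype means, Pearson's r over the 18 libraries was -0.70 for Bcl2 and Bcl2l1, the lowest of the 45 pairs of members, and 0.54 for Bcl2 and Pmaip1, the highest. Bcl2l1 and Bmf had -0.54. These values are descriptions, since all genes of a library share its cell mixture and depth. Among 10721 genes with a mean of at least 5 CPM, those most like Bcl2l1 in this measure were Rsad2 (0.98), which encodes viperin, the spermine oxidase gene Smox (0.97), the ganglioside synthase gene St3gal5 (0.97), Isca1 (0.97) of iron-sulphur cluster assembly and Cdr2 (0.97). All 5 rose in both mutant genotypes, with log2 fold changes of 1.19 to 1.74 in Dp16_2xIFNRs and 1.15 to 1.92 in Dp16. Those most like Bmf were Tagap1 (0.83), Vps11 (0.79), the lysophosphatidylserine receptor gene Gpr174 (0.77), Lpar6 (0.76) and Pald1 (0.73). Of these, Gpr174 fell in both mutant genotypes, by 0.62 in Dp16_2xIFNRs and 0.70 in Dp16, and so did Vps11, by 0.29 in Dp16_2xIFNRs and 0.22 in Dp16. Pald1 was at -0.38 in Dp16_2xIFNRs (adjusted p = 0.0338) and -0.24 in Dp16 (adjusted p = 0.192), and Tagap1 and Lpar6 did not pass.

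The rest of the death pathway was examined in 6 lists. Their counts stand beside the shares of all tested genes called against WT. These were 17.3% higher and 14.2% lower in Dp16_2xIFNRs, and 16.6% higher and 13.2% lower in Dp16. No list was tested as a set. Of 13 further BCL2 family genes 11 were tested, since Bcl2l10 and Hrk were at 0 in every library. In each mutant genotype 3 rose and 0 fell against WT, with a list median of 0.17 in Dp16_2xIFNRs and 0.09 in Dp16. Bad, a BH3-only gene, was at 0.35 ± 0.11 in Dp16_2xIFNRs (SE, adjusted p = 0.0142) and 0.42 ± 0.11 in Dp16 (adjusted p = 0.0046). Bcl2l13 was at 0.42 in Dp16_2xIFNRs and 0.44 in Dp16, and Bcl2l15 at 1.49 in Dp16_2xIFNRs and 1.13 in Dp16. Bcl2l15 was low throughout, at 2.67 ± 0.83 CPM in Dp16_2xIFNRs, 2.09 ± 0.690 in Dp16 and 0.933 ± 0.409 in WT (SD, n = 6). The guardian Bcl2l2 was not called, at 18.1 CPM in Dp16_2xIFNRs, 18.6 in Dp16 and 20.01 in WT. Bcl2a1a, Bcl2a1b and Bcl2a1d were not called either, and as near-identical copies their counts are uncertain.

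Of 12 genes of the apoptosome, caspases and their inhibitors, 3 rose and 2 fell in Dp16_2xIFNRs and 4 rose and 2 fell in Dp16, against WT. The list median was 0.08 in Dp16_2xIFNRs and 0.12 in Dp16. Cycs, which encodes the cytochrome c that effectors release, rose by 0.62 ± 0.08 (SE) in Dp16_2xIFNRs (adjusted p = 2.88e-05) and by 0.62 ± 0.08 in Dp16 (adjusted p = 2.65e-05). The mitochondrial protease gene Htra2 rose by 0.68 in Dp16_2xIFNRs and 0.58 in Dp16. Birc3, an inhibitor of apoptosis, was at -0.53 in Dp16_2xIFNRs and -0.44 in Dp16, both called lower. What these RNA changes mean for cell death was not tested. Apaf1, the scaffold of the apoptosome, was at -0.11 in Dp16_2xIFNRs (adjusted p = 0.370 in edgeR) and -0.02 in Dp16 (adjusted p = 0.886).

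Of 8 mitochondrial partners 5 rose and 0 fell in each mutant genotype, with a list median of 0.37 in Dp16_2xIFNRs and in Dp16. The outer membrane channel gene Vdac1 was at 0.44 ± 0.07 (SE) in Dp16_2xIFNRs and 0.50 ± 0.07 in Dp16, and Vdac3 at 0.48 in each. Mtch2, whose protein recruits BID to mitochondria, was at 0.43 in Dp16_2xIFNRs and 0.42 in Dp16. Bnip3l, which clears mitochondria from maturing red cells, was at 0.76 in Dp16_2xIFNRs and 0.77 in Dp16. The fusion gene Opa1 was at 0.07 in Dp16_2xIFNRs (adjusted p = 0.580 in edgeR) and 0.04 in Dp16 (adjusted p = 0.797).

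Of 10 death receptor pathway genes 2 fell in Dp16_2xIFNRs and 1 fell in Dp16, with list medians of -0.13 in Dp16_2xIFNRs and 0.03 in Dp16. Cflar, which encodes an inhibitor of caspase-8, was at -0.37 in Dp16_2xIFNRs (adjusted p = 0.00233) and -0.32 in Dp16 (adjusted p = 0.00806). The kinase gene Ripk1 was at -0.25 in Dp16_2xIFNRs (adjusted p = 0.0102) and -0.11 in Dp16 (adjusted p = 0.278). Fas, Fadd and Casp8 were not called.

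Of 15 known regulators of the members, 3 rose and 5 fell in each mutant genotype, with a list median of -0.03 in each. Gata1, the red cell factor that activates Bcl2l1 in erythroid cells, was at 143 ± 33.5 CPM in Dp16_2xIFNRs, 138 ± 31.0 in Dp16 and 45.96 ± 25.9 in WT (SD, n = 6). Its log2 fold change was 1.73 in Dp16_2xIFNRs and 1.65 in Dp16, and that of the erythropoietin receptor gene Epor was 1.56 in Dp16_2xIFNRs and 1.47 in Dp16. Both are also genes of red cell precursors, whose markers rose as given above. Foxo1, a transcription factor of lymphocytes, was at -0.65 in Dp16_2xIFNRs and -0.60 in Dp16, and Tnfrsf13c, the B cell survival receptor for BAFF, at -0.62 in Dp16_2xIFNRs and -0.66 in Dp16, all called lower. Trp53 was at -0.03 in Dp16_2xIFNRs (adjusted p = 0.799 in edgeR) and 0.03 in Dp16 (adjusted p = 0.803).

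Of 12 p53 target genes 0 were called by edgeR in Dp16_2xIFNRs (1 at an unadjusted p below 0.05), and 1 rose and 1 fell in Dp16. The list median was 0.03 in Dp16_2xIFNRs and 0.02 in Dp16. In Dp16, the cell cycle inhibitor gene Cdkn1a was at 0.36 (adjusted p = 0.0324) and the kinase gene Plk2 at -0.83 (adjusted p = 0.00129). No gene of the 6 lists was called between Dp16_2xIFNRs and Dp16 by edgeR (1 at an unadjusted p below 0.05).

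**Figure D5:**
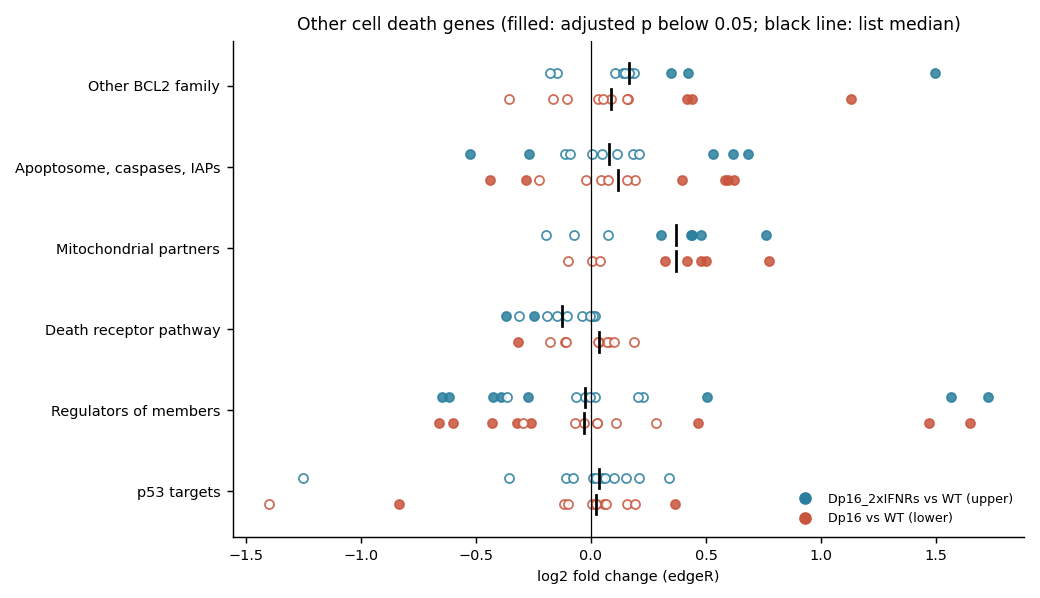
Log2 fold changes against WT (x axis, edgeR) of the genes in 6 death pathway lists (y axis), Dp16_2xIFNRs in the upper and Dp16 in the lower row of each list; filled points passed an adjusted p of 0.05 and black lines mark list medians. The mitochondrial partners have a median of 0.37 in both rows, and Gata1 and Epor lie at 1.47 or more on the right of the regulator rows.

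Other cell type markers also moved with genotype. Of 12 neutrophil markers 11 rose in each mutant genotype, with medians of 2.34 in Dp16_2xIFNRs and 2.51 in Dp16 and summed levels of 3479 to 5844 CPM in Dp16_2xIFNRs, 3097 to 10212 in Dp16 and 445 to 1865 in WT. S100a9, a calprotectin subunit, was at 2.34 in Dp16_2xIFNRs and 2.45 in Dp16, and the granule protease gene Prtn3 at 2.78 in Dp16_2xIFNRs and 2.96 in Dp16. The neutrophil marker not called was Cxcr2, at -0.24 in Dp16_2xIFNRs and -0.19 in Dp16. All 8 megakaryocyte markers rose, with a median of 1.22 in Dp16_2xIFNRs and 1.25 in Dp16, and summed to 381 to 788 CPM in Dp16_2xIFNRs, 401 to 1204 in Dp16 and 219 to 394 in WT. All 10 proliferation genes rose, with a median of 1.19 in Dp16_2xIFNRs and 1.20 in Dp16, and summed to 2325 to 3575 CPM in Dp16_2xIFNRs, 2302 to 3564 in Dp16 and 694 to 2335 in WT. The groups overlapped in this last sum, since the highest WT library reached the lowest mutant ones. They also overlapped in the megakaryocyte sum, where the lowest Dp16_2xIFNRs library (381 CPM) was below the highest WT library (394 CPM). Of 8 macrophage markers 3 rose in Dp16_2xIFNRs and 2 in Dp16, among them C1qa, at 0.34 in Dp16_2xIFNRs and 0.37 in Dp16. The other 5 in Dp16_2xIFNRs and 6 in Dp16 were not called, and the list median was 0.07 in Dp16_2xIFNRs and 0.05 in Dp16. Macrophage sums overlapped, at 2177 to 2559 CPM in Dp16_2xIFNRs, 2006 to 2856 in Dp16 and 1732 to 2670 in WT. Of 8 plasma cell markers, Jchain rose (0.73 in Dp16_2xIFNRs, 0.49 in Dp16) and Irf4 fell (-0.44 in Dp16_2xIFNRs, -0.52 in Dp16). None of these markers was at 0 in any library, and the part of these cell types in the changes of Mcl1, Bak1, Bax and Bcl2l11 was not tested.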

How the data were processed

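Spleen RNA of 18 libraries was sequenced on a NovaSeq from strand-specific poly(A) libraries, per the labels' protocols. The authors deposited whole-number counts per gene, on GENCODE vM24 gene models by the table's name. Per the submitters' processing notes the tools were bcl2fastq, FastQC 0.11.5, HISAT2 2.1.0, SAMtools 1.5 and HTSeq 0.6.1 on GRCm38, with no roles or strand setting given. The deposited RPKM values equalled those counts divided by library total and 1 length per gene, over 11538 genes with at least 100 counts in every library.

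Counts were filtered with filterByExpr by genotype and scaled by TMM. They were fitted with edgeR 4.0.16 (R 4.3.3, quasi-likelihood, robust) on genotype and sex over all 18 libraries. Calls needed a p below 0.05 after Benjamini-Hochberg adjustment over all tested genes. The test was checked on simulated counts. Sex by genotype interactions had a fit of their own. The SE of an edgeR log2 fold change is its absolute value divided by the square root of the test's F value. The 95% intervals use a normal quantile of that SE, so they are somewhat narrower than the test itself implies. Levels are TMM-scaled CPM, or RPKM where genes are compared. Alternatives used RLE or upper quartile scaling, other filters, DESeq2 1.42.0, limma 3.58.1 (trend on log2(RPKM + 0.1) or log2(RPKM + 1), or voom without and with a block for the coded label's last number), other terms, and omission of libraries or genes.

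Members and lists were chosen with earlier results of these data known. The text names the 10 members, the called genes with the smallest p (up to 4 per pathway list and comparison), up to 2 markers per list and comparison, and the 5 genes most like Bmf and Bcl2l1. Others (Cd72, Cxcr2, Bcl2l10, Hrk, Bcl2l2, Bcl2a1a, Bcl2a1b, Bcl2a1d, Apaf1, Opa1, Fas, Fadd, Casp8 and Trp53) were picked after their values were seen. A gene that the rule names is not reported here. Positions and BH3 coding stretches came from GENCODE vM21 on GRCm38. In the 45 pairs of libraries within genotypes, chi-square divided by its degrees of freedom was 42.1 to 253, so no library duplicated another of its genotype. Pairs across genotypes were not checked in this way.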

Additional observations from a re-analysis of the deposited data

Results flagged for a closer look

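In Dp16_2xIFNRs the Bmf level of replicate 4 (21.8 CPM) stood apart from the other 5 libraries, the next of which was at 19.0 CPM. It was still below the lowest WT library, at 26.6 CPM. It was the only 1 of 30 member and genotype groups marked by Dixon's test at 95%, which marks about 1 in 20 groups by chance. Without that library the log2 fold change of Bmf in Dp16_2xIFNRs against WT lay within the range of -1.01 to -0.90 found over all single omissions.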

How the results depend on the processing

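Under 32 alternatives (14 other settings, 2 of them chosen after seeing the data, and 18 single omissions), members called ranged from 5 to 7 in Dp16_2xIFNRs and in Dp16 against WT and stayed at 0 between the mutant genotypes. All genes called ranged from 4343 to 6465 in Dp16_2xIFNRs and 4176 to 6226 in Dp16 against WT, and from 3 to 4 between the mutant genotypes. Bcl2, Bcl2l1, Bmf and Mcl1 kept direction and call against WT throughout. Bax in Dp16 lost its call in 21 alternatives (adjusted p up to 0.374), among them omission of Dp16 replicate 1, 3, 4, 5 or 6, of WT replicate 1, 2, 4, 5 or 6, and of Dp16_2xIFNRs replicate 3, 4 or 6 (log2 fold change 0.18 to 0.27 over all omissions). On log2(RPKM + 0.1) the median of all genes was -0.12 in Dp16_2xIFNRs and -0.13 in Dp16. Bax was 0.16 in Dp16_2xIFNRs (0.27 relative to that median) and 0.09 in Dp16 (0.22). Bcl2l11 in Dp16 gained a call in 8 alternatives, among them omission of Dp16 replicate 4 (adjusted p = 0.0486) or Dp16_2xIFNRs replicate 1 (0.0401), and Pmaip1 in 6. The causes were not tested.

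Some members without a call turned in sign, none of them called after it. Bid in Dp16 turned to -0.0066 (RLE), -0.055 (upper quartile), -0.028 (no filter), -0.0067 (DESeq2), -0.11 and -0.10 (RPKM + 0.1 and + 1) and -0.016 (no haemoglobin or immunoglobulin genes), and ranged from -0.034 to 0.054 over omissions. In Dp16_2xIFNRs, upper quartile, RPKM + 0.1 and RPKM + 1 gave -0.021, -0.075 and -0.072 for Bid (omissions -0.0010 to 0.076) and -0.022, -0.064 and -0.059 for Bbc3 (-0.043 to 0.15). Between the mutant genotypes, omitting the 4 libraries rich in Gm42418 gave 0.013 for Bmf and -0.030 for Bax, and single omissions ranged from -0.089 to 0.039 for Bmf, -0.075 to 0.15 for Bcl2l1, -0.17 to 0.033 for Bbc3 and -0.0067 to 0.069 for Bid.

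Replicate numbers do not pair the samples: libraries with the same number correlated at a mean of 0.02 over 18 pairs after removal of genotype means, against -0.005 for others. With a replicate block 7 members (5796 genes) were called in Dp16_2xIFNRs and 6 (5534 genes) in Dp16 against WT, and 0 (4 genes) between the mutant genotypes, without Bax (adjusted p = 0.0538) and with Pmaip1 (0.0438) in Dp16. The 7 pairs of libraries that share the last number of their coded labels correlated at a mean of 0.19 (0.023 to 0.44), against 0.034 (-0.39 to 0.48) for the other 47 pairs of the same sex and different genotypes. Limma-voom, without and with that number as a random block (both chosen after seeing the data), called the same counts of members as edgeR, 7 in Dp16_2xIFNRs and 6 in Dp16 against WT and 0 between the mutant genotypes, and changed no member's call. The genes called were 6465 with that block and 5942 without it in Dp16_2xIFNRs, and 6034 and 5827 in Dp16.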
